A study of Rattus norvegicus with 16 samples.

Results

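The renin-angiotensin system was described here through 7 genes chosen by name: angiotensinogen (Agt), angiotensin-converting enzyme (Ace), aminopeptidase A (Enpep), the type 1 angiotensin receptors Agtr1a and Agtr1b, the angiotensin receptor-associated protein Agtrap and the (pro)renin receptor Atp6ap2. Of these, 6 were among the 13222 genes with values, and Agt was not analysed here. RNA was measured in glomeruli, the filtering tufts of the kidney, sieved from male Wistar rats of about 175 g on day 11 and read by poly(A) RNA sequencing. The 4 groups held 4 samples each: healthy controls, rats injected intravenously with puromycin aminonucleoside (PAN), and PAN-injected rats gavaged daily with pioglitazone or with GQ-16. The labels name a sham vehicle without saying which groups received it, and give no dose and no age. PAN is a podocyte toxin used to produce nephrotic syndrome in rats, and pioglitazone is an agonist of the nuclear receptor PPARgamma. The series title places both drugs under PPARgamma agonists. No label ties a sample to a separate animal by an identifier, so p-values measure the spread between these samples, here called rats.

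In the renin-angiotensin system, angiotensin I is released from angiotensinogen, and Ace trims it to angiotensin II. Angiotensin II acts through type 1 receptors, of which rodents have a pair of genes, and constricts glomerular vessels and mesangial cells. Enpep, carried on podocytes and on the proximal tubule brush border, removes the first residue of angiotensin II and so begins its breakdown.

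The promoters of the 3 genes that were higher after PAN are shown because they are the regulatory DNA next to the members that moved. They are RefSeq sequences of the GRCr8 build from the minus strand, written 5′ to 3′ in the direction of transcription. The windows are the 250 bases before the annotated start, and for Agtr1a 91 of those bases fall within the gene's own span and are left out. Agtr1a covers chr17:34435524-34435682, Agtr1b chr2:104849263-104849512 and Enpep chr2:220526219-220526468. Capitals mark a match, on either strand, to 4 motifs: the TATA box (TATAAA), the CCAAT box (spelled as its name), the GC box (GGGCGG) and the half-site of many nuclear receptors (AGGTCA).
Agtr1a: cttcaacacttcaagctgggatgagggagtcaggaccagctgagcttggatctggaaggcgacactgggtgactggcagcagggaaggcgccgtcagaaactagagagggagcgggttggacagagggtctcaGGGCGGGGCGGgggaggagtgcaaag
Agtr1b: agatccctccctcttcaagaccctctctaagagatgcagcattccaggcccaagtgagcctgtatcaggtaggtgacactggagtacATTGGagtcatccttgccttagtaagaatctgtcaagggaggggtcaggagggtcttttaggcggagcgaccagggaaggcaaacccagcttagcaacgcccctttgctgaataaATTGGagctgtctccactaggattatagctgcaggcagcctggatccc
Enpep: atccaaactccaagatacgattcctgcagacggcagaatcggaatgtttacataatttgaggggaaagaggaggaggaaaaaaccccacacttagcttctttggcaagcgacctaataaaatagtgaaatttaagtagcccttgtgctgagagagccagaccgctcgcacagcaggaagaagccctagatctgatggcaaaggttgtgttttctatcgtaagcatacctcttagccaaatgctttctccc

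The Agtr1a stretch shown holds a GC box at 2 positions that share a base. The Agtr1b stretch holds a CCAAT box at 2 positions on the opposite strand, and the Enpep stretch holds no match to any of these motifs. Over the full 250 bases, Agtr1a also holds a TATA box 45 bases before the start and a half-site 20 bases before the start on the opposite strand. Among 33469 RefSeq promoter windows of the same length, 12.9% hold the TATA box, 34.0% the CCAAT box, 30.5% the GC box and 14.1% the half-site. The direct repeat of the half-site with 1 base between, the kind of site that PPARs bind with RXR, was in none of the 6 members' windows and in 0.0508% of all windows. These matches describe letters only.

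Levels are in CPM, reads of a gene relative to all reads in the listed genes, and libraries held 13351137 to 21977663 reads. A count of 3 reads corresponds to 0.137 to 0.225 CPM, so every member lay far above the counting floor. Differences are on the log2(CPM + 1) scale from limma, a linear model fitted to all 13222 genes, and a gene is called at an adjusted p under 0.05. After PAN the median gene was already 0.28 higher than in controls. Mitochondrial genes took 13.9 to 39.6% of reads in control libraries and 5.98 to 10.8% in PAN libraries. Values rescaled by the median ratio across genes, which removes that shift, are therefore given beside the deposited ones in PAN minus control. The podocyte, mesangial and endothelial markers were expressed in every group, and 8 marker lists were followed. Of 4 PAN rats, 3 carry sample name numbers of 25 or above against 0 of 4 controls, so PAN and whatever that number records largely cannot be told apart. Among treated rats, only pioglitazone replicate 4 (34) and GQ-16 replicate 4 (27) carry such a number. Treated and PAN rats are therefore unbalanced in it too. Among the PAN rats, replicate 1 stood apart in the summed levels of 3 lists: fibroblast (2556 CPM, against 107 to 290 CPM in the other PAN rats), smooth muscle and pericyte (625 against 145 to 238 CPM) and leukocyte (641 against 216 to 295 CPM).

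Ace, the enzyme that forms angiotensin II, did not differ by the test. Controls measured 14.9, 10.3, 11.3 and 10.6 CPM and PAN rats 39.1, 9.55, 17.1 and 7.75 CPM. With pioglitazone the values were 20.5, 11.2, 12.4 and 12.5 CPM, and with GQ-16 they were 7.69, 9.55, 11.1 and 20.9 CPM. PAN replicate 1 was the highest of the 16 rats, and the groups overlapped throughout. PAN minus control was 0.35 (SE 0.383, limma adjusted p = 0.489) and 0.065 after median-ratio scaling (adjusted p = 0.929), and without PAN replicate 1 the sign turned, to -0.093. That rat was also the one with the high fibroblast, smooth muscle and leukocyte markers, whose part in the value was not tested.

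Enpep showed the largest difference of the members. Its level was 544, 112, 126 and 212 CPM in controls and 1612, 931, 711 and 1114 CPM in PAN rats. Every PAN rat lay above every control, as deposited and after median-ratio scaling. The means were 249 ± 202 and 1092 ± 384 CPM (SD, n = 4 each), a ratio of 4.39. Without control replicate 1, the highest control, the control mean was 150.1 CPM and the ratio 7.27. That control also had the lowest mitochondrial share of the controls (13.9%), and its podocyte markers summed to 8264 CPM. The limma difference was 2.37 (SE 0.533, adjusted p = 0.00806), and 2.07 after median-ratio scaling (adjusted p = 0.0143). Without the 2 control libraries above 30% mitochondrial reads it was 1.62 (limma adjusted p = 0.292). In bulk RNA of this kind, a change in the number of cells of a type and a change in RNA per cell cannot be told apart. The 7 podocyte markers, summed, ranged from 2100 to 8264 CPM in controls and from 6531 to 9660 CPM in PAN rats.

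Under treatment Enpep lay between the control and PAN means. Pioglitazone-treated rats measured 276, 534, 626 and 1217 CPM and GQ-16-treated rats 623, 263, 976 and 1052 CPM. Both groups overlapped controls and PAN rats alike. The order of the means was PAN, GQ-16 (729 ± 362 CPM), pioglitazone (663 ± 398 CPM) and control, and only PAN and control differed by the test.

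Agtr1a, the main type 1 receptor of the rodent kidney, rose after PAN. Controls measured 72.9, 36.9, 37.6 and 55.0 CPM and PAN rats 105, 100.5, 76.0 and 89.2 CPM. As deposited, the lowest PAN rat was just above the highest control, while after median-ratio scaling the groups overlapped. The difference was 0.91 (SE 0.196, limma adjusted p = 0.00673), and 0.61 after median-ratio scaling (adjusted p = 0.0101). Pioglitazone-treated rats measured 74.6, 86.6, 72.8 and 91.6 CPM, and GQ-16-treated rats 59.4, 60.0, 86.7 and 75.2 CPM. The group means fell in the order PAN, pioglitazone, GQ-16 and control, at 92.7 ± 12.98, 81.4 ± 9.16, 70.3 ± 13.2 and 50.6 ± 17.0 CPM (SD, n = 4 each).

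Agtr1b, the second type 1 receptor gene, was likewise higher after PAN, with less margin. Its levels were 57.9, 22.4, 20.7 and 41.5 CPM in controls and 51.9, 101, 69.5 and 77.6 CPM in PAN rats. Control replicate 1 lay above PAN replicate 1, so the groups overlapped. The difference was 1.14 (SE 0.304, limma adjusted p = 0.0192). Its call was lost after median-ratio scaling (0.85, adjusted p = 0.0524) and on leaving out control replicate 2 (0.0821), control replicate 3 (0.0801) or PAN replicate 2 (0.0610). With pioglitazone Agtr1b measured 63.7, 76.7, 58.2 and 89.7 CPM, and with GQ-16 46.5, 50.7, 83.9 and 85.9 CPM. The pioglitazone values all lay above the controls, narrowly, and the GQ-16 values did not. The coding regions of both receptor genes are closely alike, and how reads matching both were assigned is not given in the sources used here, so the split between them is uncertain.

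Agtrap, which binds the type 1 receptor and promotes its internalisation, was not called between control and PAN. Controls measured 193, 99.3, 147 and 157 CPM and PAN rats 131, 125, 136 and 197 CPM. The difference of -0.002 (SE 0.232, limma adjusted p = 0.996) had a 95% interval from -0.49 to 0.49. After median-ratio scaling it was -0.30 (adjusted p = 0.313), so the size of the difference rests on the scaling. Pioglitazone-treated rats ranged from 85.4 to 159 CPM and GQ-16-treated rats from 92.6 to 163 CPM, within or near the control range.

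Atp6ap2, the (pro)renin receptor, is also an accessory subunit of the vacuolar proton pump. It measured 92.1, 72.1, 83.5 and 75.6 CPM in controls and 110, 95.5, 92.8 and 135 CPM in PAN rats. As deposited no PAN rat fell within the control range, but the difference of 0.41 (SE 0.160) was not called by limma (adjusted p = 0.0709). It was 0.11 after median-ratio scaling, with overlapping groups (adjusted p = 0.619). Leaving out control replicate 1 brought the deposited value past the threshold (adjusted p = 0.0423). Treated rats measured 61.1, 82.8, 96.3 and 88.6 CPM with pioglitazone and 101, 73.3, 97.7 and 98.7 CPM with GQ-16.

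**Figure D1:**
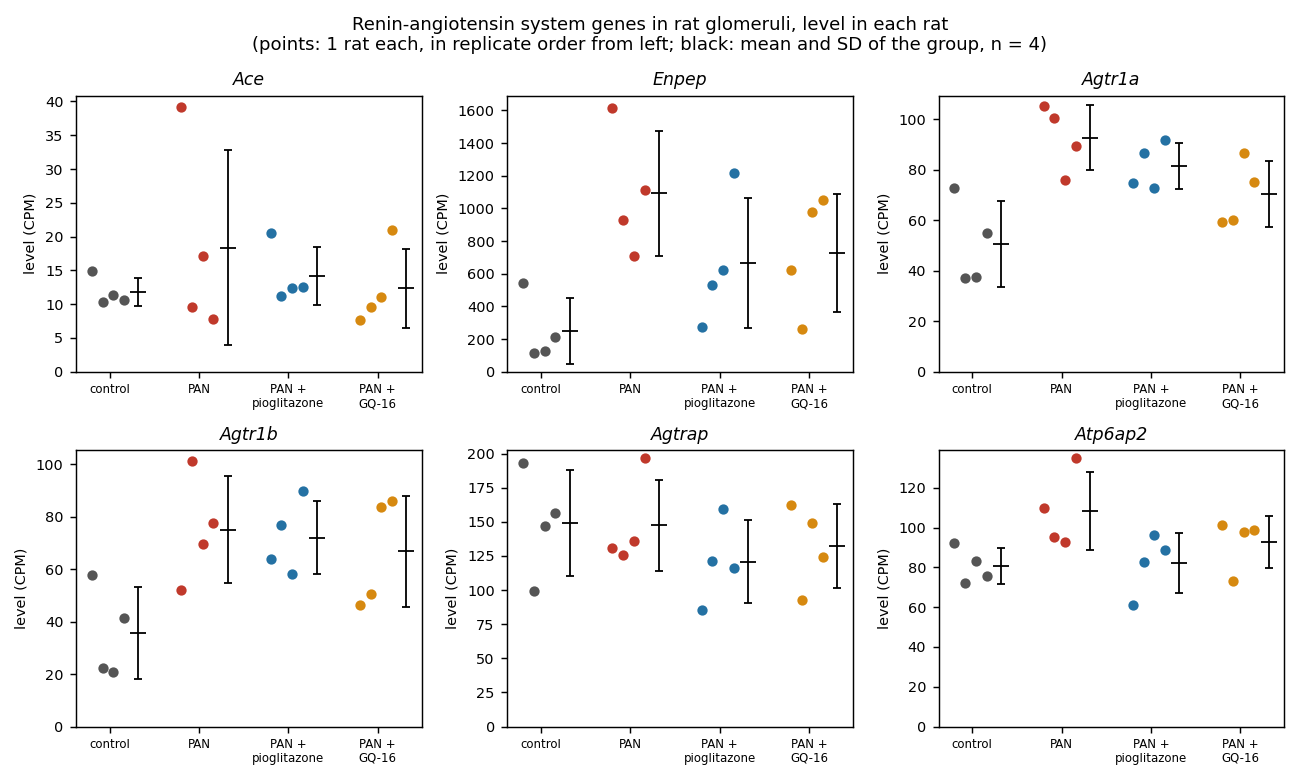
Level in CPM of the 6 members in each rat (points) by group, with the group mean and SD (bars beside the points), each axis starting at 0. Enpep and Agtr1a in PAN rats lie above all controls, and Ace has a single high PAN rat at 39.1 CPM.

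Counted together, 3 of the 6 members were called higher in PAN than in control and 0 lower, where 21.7% of all genes were called higher and 0.522% lower. After median-ratio scaling 2 of 6 were called higher, against 7.12% of all genes. The groups did not overlap for 3 of 6 members as deposited, against 22.4% of genes not overlapping in that direction. The median difference was 0.66 over the members and 0.28 over all genes. After median-ratio scaling these medians were 0.36 and -0.003. All 3 calls were lost without the 3 libraries above 30% mitochondrial reads, where Enpep was 1.62 higher (limma adjusted p = 0.191), Agtr1a 0.53 (0.210) and Agtr1b 0.56 (0.446). They were also lost with a yes or no covariate for a sample name number of 25 or above. The differences were then 1.81 for Enpep (limma adjusted p = 0.154), 0.79 for Agtr1a (0.103) and 0.92 for Agtr1b (0.228).

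Neither drug moved a member past the test when treated rats were set against PAN rats. Pioglitazone against PAN called 0 of 6 members and 0% of all genes, with 495 genes at an unadjusted p under 0.05. The fitted values of all 6 members were negative, from -0.85 for Enpep (95% interval -1.98 to 0.28) to -0.04 for Agtr1b, which turned positive after median-ratio scaling (0.045). Most genes were lower too: 27.4% of all genes had a positive value. After median-ratio scaling, with the median gene at -0.015, 5 of 6 members were negative. With the covariate for name numbers of 25 or above, values were -0.47 for Enpep, -0.42 for Atp6ap2, -0.41 for Agtrap and -0.11 for Agtr1a. Those of Ace (0.22) and Agtr1b (0.11) were then positive. Atp6ap2, at -0.40 (95% interval -0.74 to -0.06), had an unadjusted p of 0.0241 and an adjusted p of 0.916. Treated and PAN rats overlapped for every member, while 2.36% of all genes were lower without overlap.

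GQ-16 against PAN also called 0 of 6 members, with 0.0151% of all genes called and 1094 genes at an unadjusted p under 0.05. The members' values were again all negative, as were those of most genes (20.7% of all genes had a positive value). After median-ratio scaling, with the median gene at 0.0056, all 6 were still negative. Enpep was -0.70 (95% interval -1.83 to 0.43) and Agtr1a -0.40 (95% interval -0.82 to 0.02, limma adjusted p = 0.625). With the covariate for name numbers of 25 or above, Enpep was -0.33, Agtr1a -0.33, Agtr1b -0.035 and Ace -0.017. Agtrap was then -0.28 and Atp6ap2 -0.24. The groups overlapped for every member, against 3.47% of genes lower without overlap. Both drug comparisons use the same PAN rats, so their shared sign is not 2 separate observations.

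Against the same healthy controls, pioglitazone-treated rats had 2 of 6 members called higher, with 4.70% of all genes called higher. Agtr1a was 0.72 higher (SE 0.196, limma adjusted p = 0.0452) and Agtr1b 1.10 (SE 0.304, adjusted p = 0.0477). Agtr1b did not overlap the controls as deposited, as held for 13.1% of genes, and overlapped them after median-ratio scaling. Both calls sat close to the threshold: each was lost on leaving out any 1 pioglitazone rat, control replicate 2 or control replicate 3. Without both of those controls, which are the 2 above 30% mitochondrial reads, Agtr1a was 0.35 (adjusted p = 0.688) and Agtr1b 0.53 (0.708). After median-ratio scaling 1 of 6 was called, Agtr1a at 0.51 (adjusted p = 0.0492), with 2.22% of genes called higher. Enpep, at 1.52, was not called (adjusted p = 0.0965), and without control replicate 1 it was (2.00, adjusted p = 0.0222).

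GQ-16-treated rats had 0 of 6 members called against controls, where 0.151% of all genes were called higher. Enpep was 1.67 (limma adjusted p = 0.113), Agtr1b 0.96 (0.112) and Agtr1a 0.51 (0.154). Without control replicate 1, the highest control for Enpep and both receptors, these 3 passed the test at 0.0229, 0.0228 and 0.0271. The genes called then went from 20 to 1572 in all, and none of the 3 passed in the other 7 fits that left out a single rat. Without the 2 control libraries above 30% mitochondrial reads the differences shrank, to 0.91 for Enpep (adjusted p = 0.939), 0.38 for Agtr1b (0.939) and 0.13 for Agtr1a (0.954). That a receptor was called in one drug group and not in the other does not show that the drugs differ.

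The direct comparison of GQ-16 with pioglitazone called 0 members and 0% of all genes, with 786 genes at an unadjusted p under 0.05. Its 95% intervals ran from -0.98 to 1.28 for Enpep, -0.64 to 0.20 for Agtr1a, -0.79 to 0.50 for Agtr1b and -1.05 to 0.57 for Ace. For Agtrap and Atp6ap2 they ran from -0.36 to 0.62 and from -0.16 to 0.52. These intervals do not show that the drugs act alike.

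**Figure D2:**
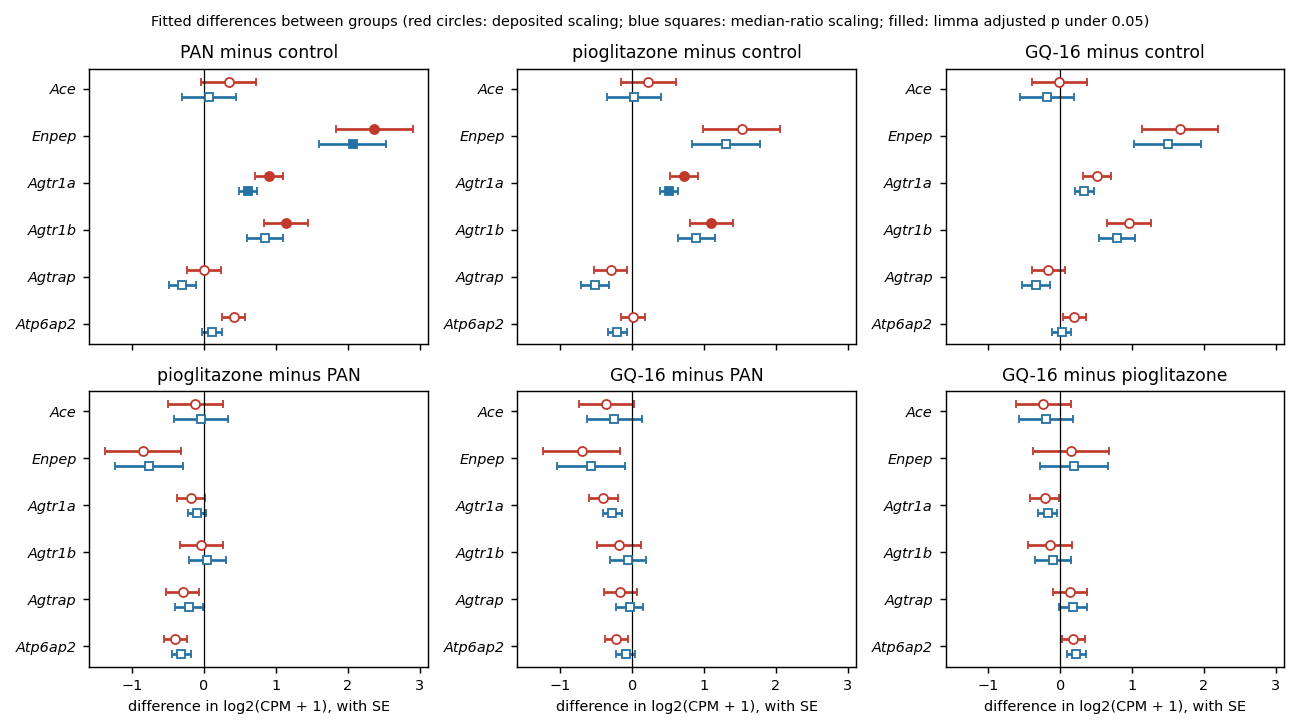
Fitted log2(CPM + 1) differences of the 6 members, with standard errors, in the 6 comparisons, as deposited (red circles) and after median-ratio scaling (blue squares). Filled symbols have a limma adjusted p under 0.05. Enpep, Agtr1a and Agtr1b are filled in PAN minus control as deposited, and nothing is filled in the 3 panels that compare treated rats with PAN or with each other.

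The levels of 4 members varied closely with a marker list across the 16 rats. For each member, the mean log2 level of 8 marker lists was correlated with its own level after median-ratio scaling, and the pairs below were picked as the highest, so they are descriptions. Agtr1a tracked the mesangial markers Pdgfrb, Itga8 and Gata3 with Pearson's r = 0.94 (Spearman's rho 0.88), and 0.82 within groups. Agtr1b tracked the same list at r = 0.86 (rho 0.67), falling to 0.67 without the 2 rats farthest from the median. Without them the smooth muscle and pericyte list (0.75) and the fibroblast list (0.68) were higher, so which list Agtr1b followed most closely over all rats rests on those 2 rats. Within groups the mesangial list was highest (0.80), against 0.18 for smooth muscle and pericyte and -0.27 for fibroblast. Enpep tracked the 7 podocyte markers at r = 0.91 (rho 0.80, 0.92 within groups). Agtrap tracked the 7 proximal tubule markers at r = 0.94 (rho 0.96, 0.92 within groups), a cell type outside the tuft whose summed markers reached 2007 to 8676 CPM in these preparations. Atp6ap2 was also highest with the proximal tubule list, at r = 0.59 (rho 0.48, 0.71 without the 2 rats farthest from the median). For Ace the leukocyte list had r = 0.52 (rho 0.10) and the fibroblast list 0.51 (rho 0.026), which became 0.08 and -0.44 without 2 rats. Within groups the fibroblast list (0.71) and the smooth muscle and pericyte list (0.69) were above the leukocyte list (0.57), and by rho the endothelial list was highest (0.32), so no closest list is named for Ace. All points share their library's scaling.

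Several marker lists differed between PAN and control rats, where 21.7% of all genes were called higher. All 3 mesangial markers were called higher, Pdgfrb by 1.61, Itga8 by 1.22 and Gata3 by 1.08, and their summed level went from 232 to 583 CPM in controls to 831 to 1221 CPM in PAN rats. Among the podocyte markers 2 of 7 were called higher, a share near that of all genes and 1 of 7 after median-ratio scaling, including the transcription factor Wt1 by 1.52 (limma adjusted p = 0.0400, and 0.0946 after median-ratio scaling). The podocyte differences nonetheless ran from 0.51 to 2.63, with a median of 1.43 against 0.28 over all genes. After median-ratio scaling these medians were 1.13 and -0.003. Higher calls were also made for 5 of 6 macrophage and leukocyte markers (0 after median-ratio scaling), 3 of 4 smooth muscle and pericyte markers (2) and 1 of 3 fibroblast markers (1). Of 5 distal nephron markers, 3 were called lower (2). Neither the proximal tubule list (0 of 7) nor the endothelial list (0 of 5) had a call. The part of these shifts in the members' differences was examined only by the subtraction that follows.

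Enpep, Agtr1a, Agtr1b and Agtrap, but not Ace and Atp6ap2, were then expressed relative to the list above by subtracting the mean log2 marker level in the same rat, in 16 exact two-sided permutation tests added after the levels had been seen. With 4 rats against 4, the smallest p such a test can give is 0.0286, and at least 10 of the 16 would have to reach it for any to pass after Benjamini-Hochberg adjustment. It was reached by 5 and none passed, which the design largely fixes. The lists were picked as the closest in these same rats, and subtracting assumes that a member moves 1 for 1 with its markers. The p-values below are therefore descriptions. Enpep minus podocyte markers was 0.54 ± 0.46 in PAN rats and -0.37 ± 0.19 in controls (SD, n = 4 each). The groups did not overlap (difference 0.91, exact p = 0.0286, adjusted 0.0914). In GQ-16-treated rats it was -0.15 ± 0.13, again without overlap with PAN (difference -0.69, exact p = 0.0286, adjusted 0.0914). The pioglitazone rats overlapped PAN (difference -0.51, exact p = 0.171, adjusted 0.343).

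Among the receptors, Agtr1a minus mesangial markers was -1.52 ± 0.15 in PAN rats and -1.12 ± 0.22 in controls (difference -0.40, exact permutation p = 0.0286, adjusted 0.0914). With GQ-16 it was 0.29 above pioglitazone (exact permutation p = 0.0286, adjusted 0.0914). Over all rats, Agtr1a itself ran from 5.56 to 6.55 and the mesangial mean from 6.38 to 8.21, on the log2 scale. The part of that wider marker range in these differences was not tested. Agtr1b minus the same markers differed by -0.16 between PAN and control (exact p = 0.571, adjusted 0.738), and by 0.0089 without PAN replicate 1. With GQ-16 it was 0.42 above PAN (exact p = 0.0286, adjusted 0.0914). For Agtrap minus proximal tubule markers the 4 exact permutation p-values ran from 0.429 to 0.8286.

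**Figure D3:**
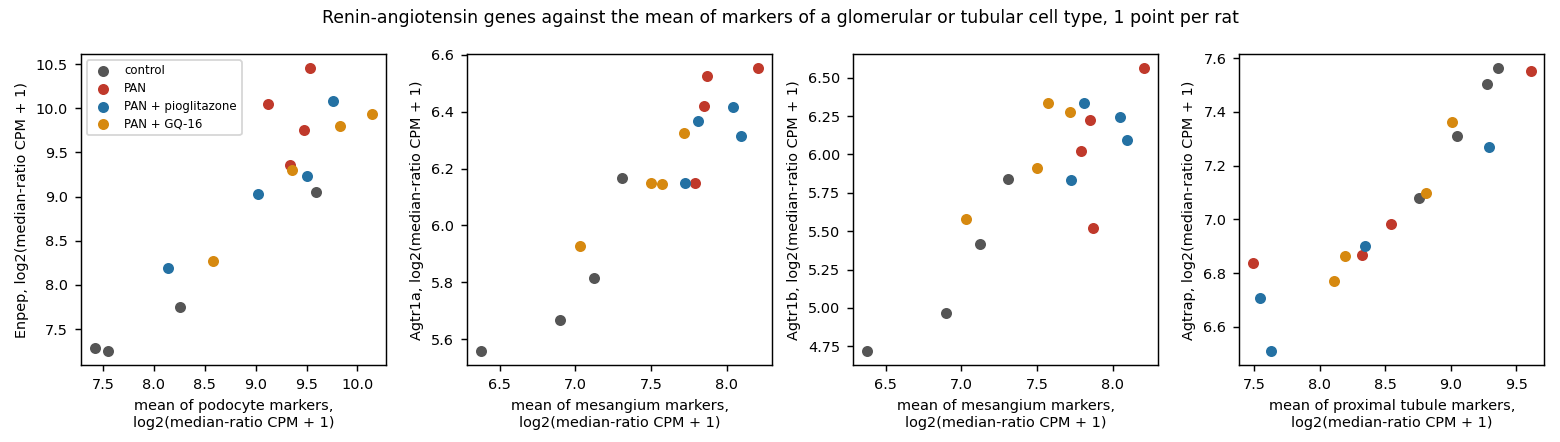
Level of a member (vertical axis) against the mean of a cell type's markers (horizontal axis), both as log2(median-ratio CPM + 1), 1 point per rat, coloured by group. Agtr1a rises with the mesangial mean (r = 0.94), Enpep with the podocyte mean (r = 0.91), and Agtrap with the proximal tubule mean (r = 0.94).

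Among themselves, some members varied together over the 16 rats. Agtr1a and Agtr1b had r = 0.83 with each other, and 0.70 within groups. Enpep had r = 0.80 with Agtr1a and 0.71 with Agtr1b, and 0.58 and 0.43 within groups. Agtrap and Atp6ap2 had r = 0.67 with each other (0.74 within groups), and r from -0.45 to -0.13 with the receptors (-0.30 to -0.05 within groups). Ace ranged from r = -0.43 with Agtrap (-0.55 within groups) to 0.08 with Agtr1a.

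The genes whose levels were most like each member over the 16 rats were listed by Pearson's r, as a description with no test. For Agtr1a they were Gucy1b1, a soluble guanylate cyclase subunit, Lhfpl6 and Armcx2, at 0.98, 0.97 and 0.96. For Agtr1b they were Prg4, Snd1 and Tspan6, at 0.95, 0.94 and 0.94. Enpep was closest to Pxylp1 and Chpf, which act in glycosaminoglycan synthesis, both at 0.98, and to the zinc transporter Slc39a13 at 0.97. Agtrap was closest to Def8, the carnitine transporter Slc22a5 and Paqr7, at 0.98, 0.98 and 0.97. For Ace the nearest were Socs3, Jak3 and Bcl3, genes of cytokine signalling, at 0.89, 0.89 and 0.88, which fell to 0.76, 0.75 and 0.73 without the 2 rats farthest from the median. For Atp6ap2 they were the lysosomal enzymes Tpp1 and Gaa and the enzyme Gpd1, at 0.89, 0.88 and 0.88, falling to 0.73, 0.65 and 0.59.

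The other genes of the pathway were followed in 3 lists. Of 21 further angiotensin peptidases and receptors, 14 had values, and 1 was called higher after PAN. This was Ctsd, the lysosomal protease cathepsin D, at 0.70 (limma adjusted p = 0.0423), which was not called after median-ratio scaling (0.185) and in 4 of the 8 fits that left out a single rat (0.42 without PAN replicate 1). The remaining 7, among them Agtr2 and Mas1, were not analysed here. The median of the 14 was 0.28, the same as for all genes.

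The genes that couple the type 1 receptor to its signals gave a similar picture. Of 27, 5 were called higher after PAN and 0 lower: the phospholipases Plcb2 (0.73) and Plcb3 (0.38), the arrestin Arrb2 (0.58), the kinase Prkca (0.63) and the oxidase subunit Cybb (0.93). That share was near the background, the list's median of 0.29 was close to that of all genes, and 0 were called after median-ratio scaling. Each of the 5 calls was also lost in 3 to 6 of the 8 fits that left out a single rat. Cybb and Plcb2 are also expressed in leukocytes, whose summed markers ranged from 216 to 641 CPM in PAN rats and from 124 to 197 CPM in controls. The 641 CPM belongs to PAN replicate 1, without which Cybb was 0.55 (adjusted p = 0.155) and Plcb2 0.43 (0.142). The part of leukocytes in these values was not tested.

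Among genes that angiotensin II can induce, several rose after PAN. Of 14 with values (Ccl2 was not analysed here), 7 were called higher and 0 lower, both as deposited and after median-ratio scaling, against 21.7% and 7.12% of all genes called higher, and the median of the 14 was 0.95 (0.65 after scaling). The matricellular gene Ccn2 measured 562, 94.2, 75.5 and 200.5 CPM in controls and 1403, 933, 668 and 705 CPM in PAN rats, without overlap. Ccn2 and its relative Ccn1 were 2.39 and 1.56 higher (limma adjusted p = 0.0120 and 0.00239), and Trpc6, Timp1, Nr4a1 and Tgfb1 were also called. Many other stimuli induce these genes, and which one acted was not tested. The leukocyte, smooth muscle and fibroblast markers moved with them, most in PAN replicate 1, without which Ccn2 was 2.17 (adjusted p = 0.0437) and Ccn1 1.24 (0.00512). The mesangial and podocyte markers were higher in PAN rats too, by medians of 1.22 and 1.43. The part of any marker list in these values was not tested. The Ccn2 call was lost without control replicate 2 (adjusted p = 0.0562) or control replicate 3 (0.0534). Without the 3 libraries above 30% mitochondrial reads, Ccn2 (1.40, adjusted p = 0.245) and Ccn1 (1.51, 0.0732) were not called. With the covariate for sample name numbers of 25 or above, Ccn1 was called (limma adjusted p = 0.0422) and Ccn2 was not (0.172).

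Set against controls, pioglitazone-treated rats had 0 of 14 peptidase and receptor genes, 1 of 27 coupling genes (Prkca, 0.69) and 4 of 14 inducible genes called higher, against 4.70% of all genes. After median-ratio scaling these counts were 0, 0 and 1, against 2.22%. GQ-16-treated rats had 0, 0 and 1 (Nr4a1, 0.90), against 0.151%. In the comparisons of treated rats with PAN rats and of both drugs, limma called 0 genes of the 3 lists.

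**Figure D4:**
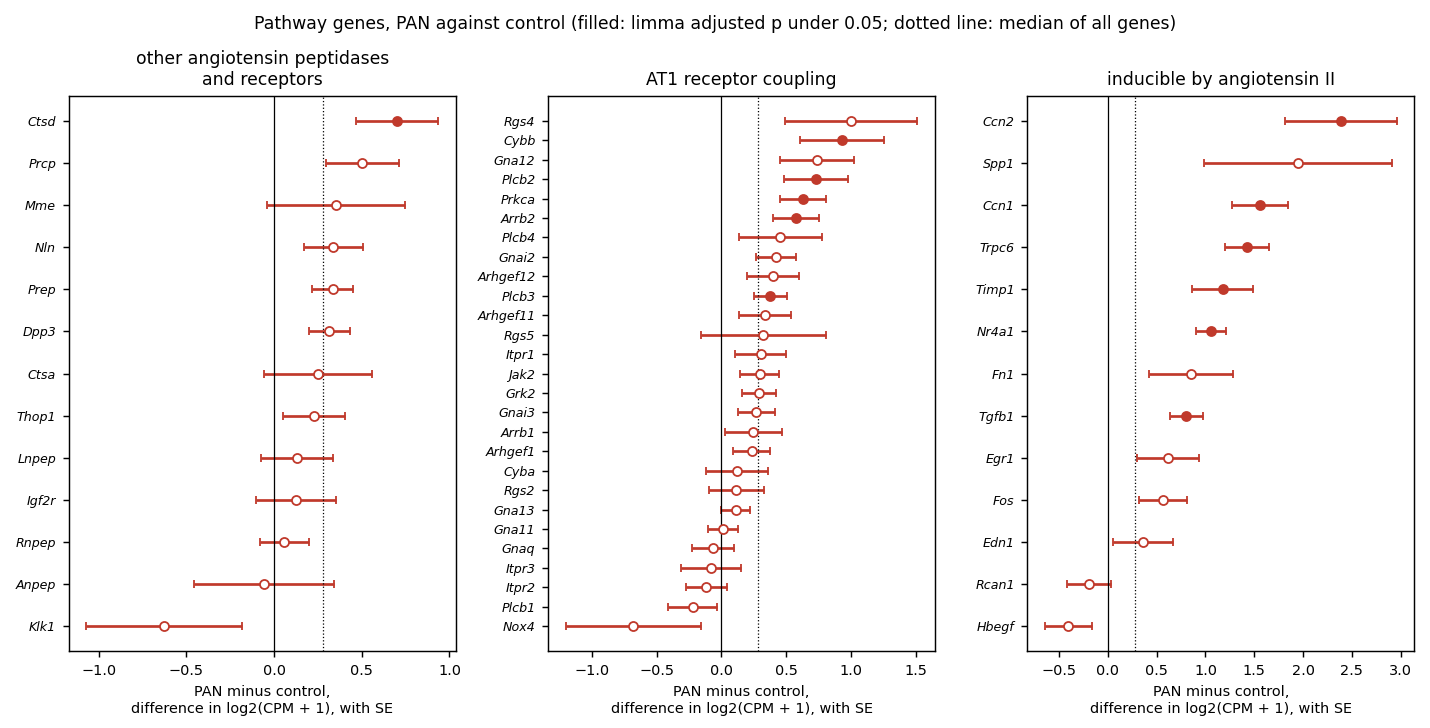
Difference in log2(CPM + 1) between PAN and control, with its SE, for 13 of 14, 27 of 27 and 13 of 14 genes with values in the 3 pathway lists; list counts in the text cover all of them. Filled points have a limma adjusted p under 0.05, and the dotted line marks the median of all genes at 0.28. The inducible genes lie mostly to the right of the line, Ccn2 among them at 2.39, and the coupling genes scatter around it.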

How the data were processed

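The deposited table holds log2 CPM for 13222 genes in 16 libraries, 4 per group, in the form log2((count + 0.5)/(total + 1)) scaled to CPM; undoing it gave whole reads for 100% of values (tolerance 0.02 read). Per the submitters' processing notes, HISAT2, Subread, featureCounts and limma were used with Rnor_6.0, without versions or roles; treatment of multi-mapping reads is not given in the sources used here. Libraries were stranded poly(A) libraries from 200 ng RNA with 12 PCR cycles, per the labels' protocols. Replicate numbers follow accession order and only name rats.

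From these values limma 3.58.1 in R 4.3.3 was run on log2(CPM + 1) with 4 group means over 16 libraries and a mean-variance trend. Benjamini-Hochberg adjustment was over 13222 genes, and tests were two-sided. The fit was checked on simulated reads with known changes. Those reads held no difference in mitochondrial share or name number between groups, so the check does not cover such differences. The design had allowed for counts first; with log2 values deposited, the limma form was used. Median-ratio scaling used the recovered reads. The counting floor comes from reads alone, while the 95% intervals are limma's and come from the spread between rats. No 2 libraries of a group agreed within sampling noise. Alternatives were other scalings, voom, a pseudocount of 0.1, a minimum mean of 10 CPM, fewer groups, a name number covariate, and each rat left out. The covariate was a yes or no value for a name number of 25 or above. A further 5 settings were added after seeing the data.

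The members and lists were chosen with earlier results of these data known. Named genes are the members, list genes called (up to 6) or otherwise the 3 largest rises and falls, and the 3 genes closest to each member; a few genes this rule names are not reported here, though list counts, medians and marker means include them. Promoter motifs were searched on both strands of RefSeq GRCr8 windows.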

Additional observations from a re-analysis of the deposited data

Results flagged for a closer look

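Among 24 groups of 4 rats (the 6 members in 4 groups), 1 held a rat far from the others. Atp6ap2 in GQ-16 replicate 2 was 6.196 log2 CPM, while the other 3 rats of that group lay between 6.61 and 6.66. Its gap to the nearest rat was 0.892 of the group's range, above Dixon's limit for 4 values, which chance passes in about 1 group in 20. The same library had 31.4% mitochondrial reads, and after median-ratio scaling its Atp6ap2 level was 85.5 CPM, against 89.1 to 102 CPM in the other 3.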

How the results depend on the processing

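No paired analysis was possible because the replicate numbers were given in accession order and pair no rats. PAN minus control called 2943 genes as deposited. It called 1141 after median-ratio scaling, 1047 with voom, 1580 with only the groups compared, 393 with the name number covariate (381 with median-ratio scaling too), 56 without the 3 libraries above 30% mitochondrial reads and 127 without the 2 control libraries among them. Members called, 3 as deposited, were 0 in each of the last 4 settings. Leaving out 1 rat gave 838 to 4964 genes and 2 to 4 members.

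Pioglitazone minus control called 659 genes and 2 members. Genes were 376 after median-ratio scaling, 250 with voom, 393 with the 10 CPM minimum, 285 with names numbered 15 or lower, 399 with covariate and median-ratio scaling, and 0 and 1 without the 3 and the 2 high-mitochondrial libraries. Members were 1 after median-ratio scaling and 0 in the other settings just named, with only the groups compared and with the covariate. Leaving out 1 rat gave 48 to 1660 genes and 0 to 3 members. GQ-16 minus control called 20 genes, then 98 after median-ratio scaling, 35 with voom, 33 with the covariate, 83 with both, 144 with names numbered 15 or lower and 0 without either set of high-mitochondrial libraries, and 0 to 1572 genes and 0 to 3 members with 1 rat left out. GQ-16 minus PAN called 2 genes, 1 with the 10 CPM minimum, 0 with median-ratio scaling, voom, only the groups compared, the covariate, both together or without the high-mitochondrial libraries, and 0 to 9 with 1 rat left out. Pioglitazone minus PAN gave 0 to 1.

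Signs turned only for differences not called in either fit. With the covariate, PAN minus control became -0.17 for Ace (-0.37 with median-ratio scaling too) and 0.17 for Agtrap. Pioglitazone minus PAN became 0.22 for Ace (0.24) and 0.11 for Agtr1b (0.13), which was 0.045 after median-ratio scaling and 0.042 with voom. GQ-16 minus PAN became, with both, 0.042 for Ace and 0.028 for Agtr1b. Pioglitazone minus control became, for Atp6ap2, -0.21 after median-ratio scaling and with voom, -0.16 with covariate and scaling, -0.031 with names numbered 15 or lower and -0.041 without either set of high-mitochondrial libraries, and for Ace -0.12 with covariate and scaling. Over rats left out, PAN minus control ran from -0.093 to 0.64 for Ace and -0.18 to 0.14 for Agtrap. Pioglitazone minus PAN ran from -0.42 to 0.32 for Ace and -0.20 to 0.12 for Agtr1b, and GQ-16 minus PAN from -0.66 to 0.075 for Ace. GQ-16 minus pioglitazone ran from -0.28 to 0.0085 for Agtr1b, -0.21 to 0.57 for Enpep and -0.021 to 0.29 for Agtrap. Against control, Atp6ap2 ran from -0.071 to 0.14 with pioglitazone and Ace from -0.29 to 0.16 with GQ-16. Relative to markers, Agtr1b ran from -0.24 to 0.0089 in PAN minus control and -0.11 to 0.13 in pioglitazone minus PAN, and Agtrap from -0.13 to 0.34, -0.28 to 0.19 and -0.38 to 0.018 in pioglitazone minus PAN, GQ-16 minus PAN and GQ-16 minus pioglitazone. The cause of these changes was not tested. Spread between rats, not read depth, set the width of the intervals.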
